A study of Mus musculus with 12 samples.

Results

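The comparison described here was that of B16-OVA cells kept for 72 h with the MEK inhibitor GDC-0623 (MEKi) against cells kept for 72 h with DMSO alone. B16-OVA is a mouse melanoma line that carries chicken ovalbumin as a model antigen, and GDC-0623 was used at 100 nM on the cultured line alone. It took up 6 of the 12 arrays of the series, 3 with MEKi and 3 with DMSO, chosen by their labelled drug and time alone. The other 6 arrays, 3 with MEKi and 3 with DMSO at 24 h, were used where the effects at the 2 times were compared. RNA was measured on Affymetrix 3' expression arrays of the mouse genome, and every level below is a log2 RMA signal, so that a difference of 1 is a 2-fold change. The submitters call the arrays of a condition biological replicates. The sources used here did not state that they came from separate cultures, and p-values measure the spread between these arrays. The purpose, as the study describes it, was to see what MEK inhibition does to the tumor cells themselves and to their capacity to be seen by T cells.

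MEK is the kinase that activates ERK, and ERK in turn drives immediate early genes, growth genes and its own inhibitors. Among these inhibitors are the phosphatases of the DUSP family and the Sprouty and Spred proteins, whose transcripts therefore serve as a readout of ERK activity. In melanoma cells the pathway sustains proliferation, and in many melanoma lines it also acts on the pigment cell program under the transcription factor MITF.

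The arrays carried the marks of the labelled cell type. All 7 melanocyte defining markers lay above the median signal of each array, with Dct (14.26 to 14.37 in the 6 arrays) and Pmel (14.03 to 14.13) near the top of the scale. In the 72 h arrays 5 of 16 immune, 3 of 10 fibroblast, 3 of 10 endothelial and 1 or 2 of 10 epithelial markers also lay above it. The test that follows compares MEKi with DMSO and does not show whether a marker was present. Of 16 immune markers, 10 fibroblast markers, 10 endothelial markers and 10 epithelial markers, 0 passed the test at 72 h by limma, adjusted over all probe sets, and 1 immune and 1 epithelial marker had an unadjusted p under 0.05. With the replicate number as a block 1 immune marker passed. Their summed signals were 9.07 to 9.16 with DMSO and 9.18 to 9.25 with MEKi for the immune list and 10.53 to 10.67 and 10.58 to 10.75 for the fibroblast list. Those of the endothelial list were 10.08 to 10.33 and 10.33 to 10.40, and those of the epithelial list 8.00 to 8.43 and 8.15 to 8.36. The first principal component of the 6 arrays held 49% of the variance and set the 3 MEKi arrays apart from the 3 DMSO arrays. The ratios of 3' to 5' control signals for Gapdh, Actb and Dap overlapped between the groups.

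Of 45037 probe sets, 1347 were higher (2.99%) and 1913 lower (4.25%) with MEKi at 72 h at an adjusted p under 0.05 (limma, Benjamini-Hochberg). Counted by gene, with each gene read by its brightest probe set, 734 of 18193 were higher (4.03%) and 935 lower (5.14%). Most of these changes were modest. The median size among the called genes was 0.51, and 62 genes rose and 46 fell at least 2-fold. The MEKi and DMSO arrays did not overlap in any of the 1669 called genes, but neither did they in 14.7% of all genes in the upward and 14.4% in the downward direction. The count of 3260 probe sets was 1566 without DMSO replicate 1, 1623 without MEKi replicate 1 and 1383 without MEKi replicate 2.

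**Figure D1:**
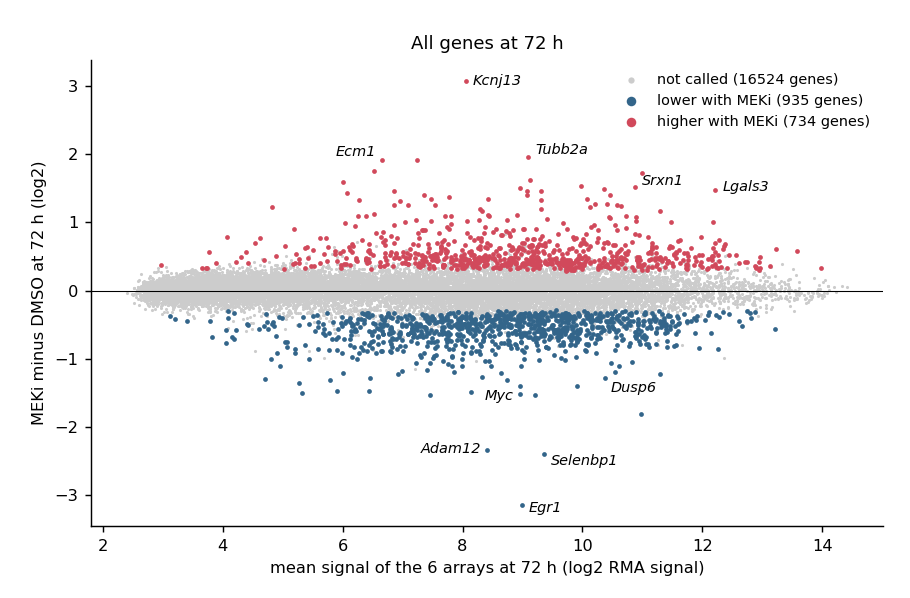
Difference between MEKi and DMSO at 72 h (log2, y axis) against the mean signal of the 6 arrays (log2 RMA signal, x axis) for 18193 genes, each a point, coloured where the adjusted p was under 0.05. The 734 genes that were higher and the 935 that were lower lay mostly within 1 unit of 0, with Kcnj13 at 3.07 and Egr1 at -3.14 as the extremes.

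The largest rises included genes of the cytoskeleton, the matrix and redox metabolism. Kcnj13, which encodes an inward rectifier potassium channel, stood at 6.91, 6.48 and 6.16 with DMSO and at 10.56, 9.12 and 9.08 with MEKi, a difference of 3.07 ± 0.35 (SE; 8.4-fold; adjusted p = 0.00145). Every MEKi array lay more than 2 units above every DMSO array. The beta-tubulin gene Tubb2a rose by 1.95 ± 0.23, and Ttll7, which encodes an enzyme that adds glutamate chains to tubulin, by 1.6 ± 0.11. The secreted matrix protein genes Adamtsl4 (1.92 ± 0.19) and Ecm1 (1.91 ± 0.13) rose alike. Blvrb, the gene of biliverdin reductase B (1.72 ± 0.14), and Srxn1, which encodes the peroxiredoxin-repairing sulfiredoxin (1.51 ± 0.24), belong to redox metabolism. Uchl1, a deubiquitinase gene abundant in neurons (1.62 ± 0.11), Mllt11 (1.54 ± 0.14), Tmem140 (1.75 ± 0.21), the sterol enzyme gene Hsd3b7 (1.51 ± 0.11) and Fbxo2, a ubiquitin ligase subunit that binds glycoproteins (1.49 ± 0.11), completed the 12 largest rises. Averaged over their 2 probe sets each, Tubb2a (1.21), Ttll7 (0.99), Tmem140 (0.93) and Mllt11 (0.83) gave smaller differences and kept their calls. Their adjusted p ranged from 0.000315 for Ecm1, Uchl1 and Ttll7 to 0.00616 for Srxn1.

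Among the largest falls, Selenbp1, which encodes a selenium-binding protein, stood at 11.14, 9.96 and 10.58 with DMSO and at 8.35, 7.12 and 9.01 with MEKi (-2.40 ± 0.42; adjusted p = 0.00913). The arrays varied by over 1 unit within each group, and the groups still did not overlap. Adam12, a metalloprotease gene, fell from 9.72, 9.60 and 9.43 to 6.99, 6.84 and 7.90 (-2.34 ± 0.23; adjusted p = 0.000883). The secreted carbonic anhydrase gene Car6 (-1.80 ± 0.12), the collagen gene Col14a1 (-1.47 ± 0.16), Slc35f1 (-1.4 ± 0.14) and Map2k6, the gene of a kinase that activates p38 (-1.47 ± 0.15), were also lower. Further falls came from genes of lipid and energy metabolism, namely the lipase inhibitor gene G0s2 (-1.53 ± 0.27), the lipoprotein receptor gene Vldlr (-1.5 ± 0.25) and the mitochondrial adenylate kinase gene Ak4 (-1.53 ± 0.22). Averaged over its 6 probe sets Vldlr gave -0.71 and lost its call (adjusted p = 0.0524), while Ak4 (-0.79) and Col14a1 (-0.55) gave smaller differences and kept theirs. Cth, which encodes the cysteine-forming enzyme cystathionine gamma-lyase, was lower by -1.39 ± 0.29 (adjusted p = 0.0198), a call that was lost without DMSO replicate 1 or MEKi replicate 1 or 2 (adjusted p up to 0.0849).

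The ERK output list was lower in 11 of 29 measured members (37.9%, against 5.14% of all genes) and higher in 1 (3.45%, against 4.03%). Its median was -0.21 against 0.01 over all genes. The phosphatase gene Dusp6, which dampens ERK, stood at 11.17, 11.03 and 10.84 with DMSO and at 9.85, 9.51 and 9.82 with MEKi (-1.29 ± 0.12; 2.44-fold; adjusted p = 0.000671). The groups were separated by about 1 unit. Etv5, an ETS factor gene, stood at 5.59, 5.33 and 5.12 with DMSO and at 4.06, 3.93 and 4.18 with MEKi (-1.29 ± 0.12; adjusted p = 0.000744; -0.72 as the mean of its 3 probe sets). The median signal of the arrays was 5.36 to 5.42, and at or below it background can limit how far a signal falls, so that the sizes for Etv5 and Spry4 are uncertain. The Sprouty gene Spry2 was lower by -0.52 ± 0.08 (adjusted p = 0.0057). Spry4 was lower by -0.58 ± 0.15 (adjusted p = 0.0452), a call that was lost under the replicate block (0.0699) and without DMSO replicate 1 or 3 or any 1 of the MEKi replicates (up to 0.157), and the mean of its 4 probe sets gave -0.30 (adjusted p = 0.112). Etv4, a relative of Etv5, did not pass, with 5.43, 5.66 and 5.61 under DMSO and 5.40, 5.66 and 5.70 under MEKi (0.02 ± 0.11; adjusted p = 0.948). These levels too were close to the median signal. The member that rose, named after its value was seen, was Phlda1 (0.43 ± 0.08; adjusted p = 0.013), and its call was lost on leaving out DMSO replicate 1 or MEKi replicate 2 (highest 0.0672). The count of 11 lower members was 6 without DMSO replicate 1, MEKi replicate 1 or MEKi replicate 2 and 7 without DMSO replicate 3.

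The immediate early genes varied more between the arrays of a group than these feedback inhibitors did. Egr1, a zinc finger factor gene, stood at 10.47, 10.30 and 10.91 with DMSO and at 5.91, 6.47 and 9.87 with MEKi (-3.14 ± 0.80; adjusted p = 0.0445). The groups did not overlap, but MEKi replicate 3 lay closer to the DMSO arrays than to the other MEKi arrays. Without MEKi replicate 3 the difference was -4.37 (adjusted p = 9.8e-05), and without any other array the adjusted p was 0.0808 to 0.167. Fos was 8.79, 9.11 and 9.52 with DMSO and 7.65, 8.06 and 9.42 with MEKi (-0.76 ± 0.37; adjusted p = 0.297). In each of the 3 replicate numbers its MEKi array was the lower, and with the number as a block the adjusted p was 0.043. Myc, the growth-driving transcription factor gene, fell from 9.58, 9.72 and 9.86 to 7.77, 7.98 and 8.85 (-1.52 ± 0.23; 2.87-fold; adjusted p = 0.0047). MEKi replicate 3 was again the highest of its group. The cyclin D1 gene Ccnd1 (10.43, 10.45 and 9.80 against 9.82, 10.03 and 9.72) did not pass (-0.37 ± 0.17; adjusted p = 0.249). In the MYC and MAX network list 1 of 12 was lower and 1 higher (8.33% each, against 5.14% and 4.03% of all genes). The former was Myc and the latter Mlx (0.44 ± 0.08). The Mlx call was lost without DMSO replicate 1 or MEKi replicate 2 (adjusted p up to 0.0585). The lower count was 2 under the block and without DMSO replicate 2 or 3 or MEKi replicate 3.

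**Figure D2:**
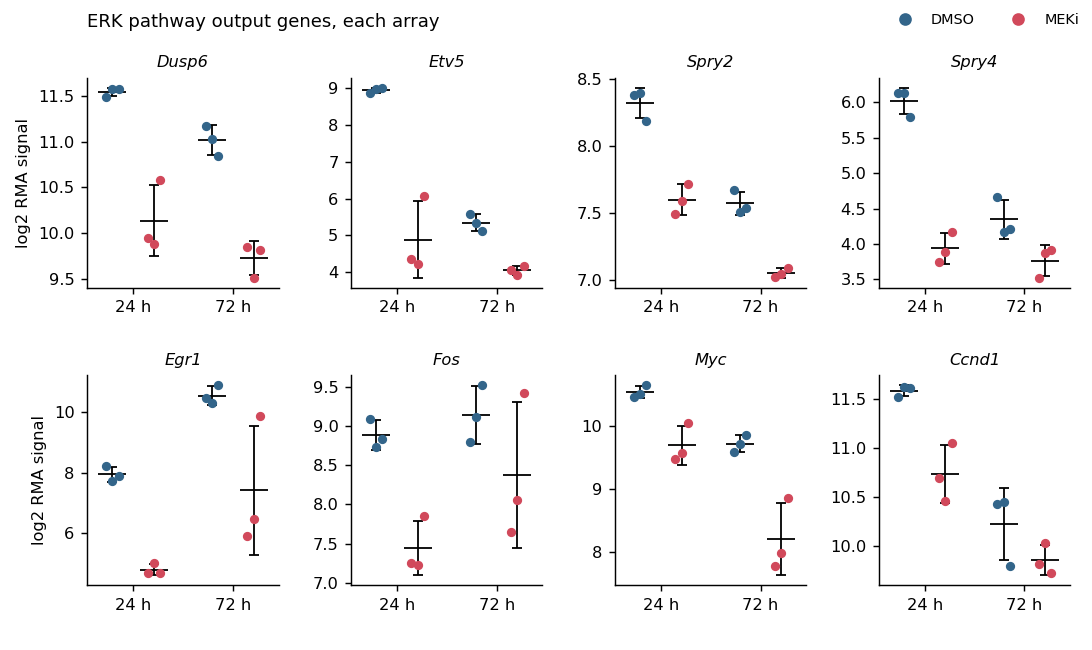
Log2 RMA signal of 8 ERK output genes by array, with 1 point for each of 12 arrays and a black line and bar for the group mean and SD (n = 3), at 24 h and 72 h. At 72 h Dusp6, Etv5, Spry2 and Myc were lower in each MEKi array than in any DMSO array, and the third MEKi array of Egr1, Fos and Myc lay above the others of its group.

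The level with DMSO also moved between the times, and this enters each comparison of the MEKi effects. So did some control signals of the arrays. The 3' minus 5' signal of Dap was 2.01 to 2.14 at 24 h and 1.35 to 1.51 at 72 h. That of Actb was 0.25 to 0.3 and 0.13 to 0.21, while that of Gapdh overlapped (-0.07 to -0.02 and -0.11 to -0.04). The part of these signals in any change between the times was not tested. Etv5 averaged 8.94 with DMSO at 24 h and 5.35 at 72 h, while with MEKi it averaged 4.88 and 4.06. The measured MEKi effect on Etv5 was -4.06 at 24 h and -1.29 at 72 h, a difference of 2.77 ± 0.48 (adjusted p = 0.00852). Spry4 had effects of -2.08 and -0.58 (difference 1.5 ± 0.22; adjusted p = 0.00351), and Etv4 had effects of -0.88 and 0.02 (0.90 ± 0.13; adjusted p = 0.00329). For Etv5 and Spry4 the DMSO mean at 72 h (5.35 and 4.35) and the MEKi means at both times lay below the array median, so a smaller effect at 72 h cannot be told apart from a signal that could fall no further. Etv4 lay near the median at 72 h (5.57 with DMSO and 5.59 with MEKi) and with MEKi at 24 h (5.40). There too a smaller effect cannot be told apart from such a limit. For Dusp6 the effects were -1.41 and -1.29 and did not differ beyond their error (0.12 ± 0.22; adjusted p = 0.866). Over the ERK output list the median effect was -0.51 at 24 h and -0.21 at 72 h, with 4 of 29 differences above 0 at the threshold and 0 below it. Over all genes 1.97% of differences between the times passed in the upward and 2.11% in the downward direction.

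The broadest change at 72 h was a fall of genes of cell division. Among the 49 genes of the mitosis and G2/M list 48 fell and 0 rose, against 5.14% of all genes called lower. The median was -0.68, and all 49 differences were negative. The member that did not pass was Foxm1, the transcription factor gene of the G2/M program, which is named for that reason (-0.38 ± 0.11; adjusted p = 0.0699). Measured from the DMSO mean of each gene, the median member stood at -0.01, 0.07 and -0.06 in the 3 DMSO arrays and at -0.75, -0.65 and -0.67 in the 3 MEKi arrays. The count stayed between 42 and 48 when any 1 array was left out. The arrays read whole cultures, in which fewer cells in a phase and less RNA per cell cannot be told apart.

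Melk, which encodes a mitotic kinase, fell from 10.01, 10.14 and 9.86 to 8.98, 8.95 and 9.25 (-0.94 ± 0.11; adjusted p = 0.00157). Cdc25b, the gene of a phosphatase that activates cyclin-dependent kinases, stood at 8.75, 8.76 and 8.74 with DMSO and at 7.76, 7.81 and 7.88 with MEKi (-0.93 ± 0.08; 1.91-fold; adjusted p = 0.000577). Its arrays varied by about 0.1 or less within a group. The spindle protein gene Nusap1 (-0.92 ± 0.09) and the kinetochore gene Ndc80 (-0.88 ± 0.10) fell by similar amounts, followed by the topoisomerase gene Top2a (-0.80 ± 0.08) and the proliferation marker gene Mki67 (-0.62 ± 0.09). Averaged over their probe sets Nusap1 gave -0.57 and Top2a -0.37, and both kept their calls. Cdk1, the mitotic kinase gene itself, was lower by -0.52 ± 0.09 (adjusted p = 0.00979), which was 0.0516 without MEKi replicate 2.

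**Figure D3:**
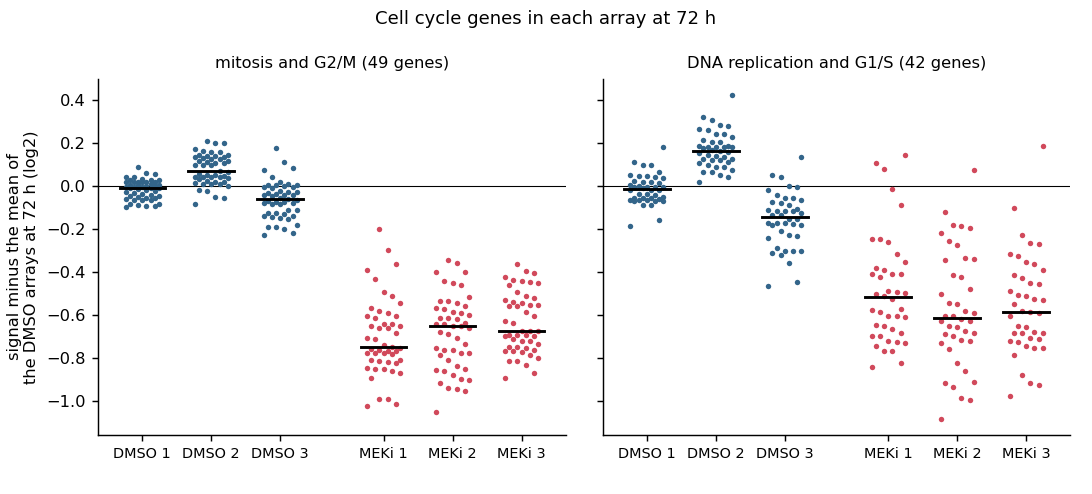
Signal of each measured gene minus its mean over the DMSO arrays at 72 h (log2, y axis), with a point per gene and a line at the median, in the 6 arrays at 72 h (x axis), for 49 mitosis and G2/M genes and 42 DNA replication genes. The medians of the mitosis genes lay between -0.06 and 0.07 in the DMSO arrays and between -0.75 and -0.65 in the MEKi arrays, and those of the replication genes between -0.15 and 0.16 and between -0.61 and -0.52.

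The mitotic genes also shared promoter letters. RefSeq promoter windows (GRCm38.p6; 250 bases before to 50 after a transcript start) were at hand for 42 of the 48 lower members, as 44 windows. The letters TTTGAA, the core of the CHR element through which mitotic genes are repressed in resting cells, stood on either strand in 35 of the 44 windows (79.5%), against 17.9% of all 32851 windows. The variant TTTAAA was in 18.2% against 13.2%. The CCAAT box, the site of the factor NF-Y, was in 79.5% against 37.4%. A match of letters is a description and not a measured binding site. All list members with a window were called lower, so these shares describe the list chosen. Whether the letters bear on the response to MEKi was not tested. As examples, the 3 members with the largest falls among those with a single window and both elements within 100 bases before to 30 bases after the start are printed 5' to 3', with TTTGAA and CCAAT (either strand) in capitals. They are Ttk, a spindle checkpoint kinase gene (chr9:83834589-83834718, plus strand), the spindle gene Spag5 (chr11:78301491-78301620, plus strand) and Ube2c, the gene of the ubiquitin-conjugating enzyme of the anaphase-promoting complex (chr2:164769829-164769958, plus strand).
Ttk: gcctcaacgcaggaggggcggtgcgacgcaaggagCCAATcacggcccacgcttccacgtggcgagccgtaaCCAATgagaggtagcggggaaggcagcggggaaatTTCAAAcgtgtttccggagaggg
Spag5: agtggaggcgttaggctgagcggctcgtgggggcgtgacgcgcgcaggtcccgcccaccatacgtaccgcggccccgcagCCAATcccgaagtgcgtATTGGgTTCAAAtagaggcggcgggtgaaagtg
Ube2c: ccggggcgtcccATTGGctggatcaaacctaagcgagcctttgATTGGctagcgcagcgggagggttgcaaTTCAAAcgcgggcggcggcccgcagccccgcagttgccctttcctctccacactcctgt
In each stretch a CCAAT box lies upstream of TTTGAA. At 72 h Ttk fell by 0.86 ± 0.10, Spag5 by 0.84 ± 0.08 and Ube2c by 0.81 ± 0.08, with adjusted p of 0.00135, 0.000671 and 0.00102.

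Genes of DNA replication and the G1/S step fell together with them. Of 42 measured members 31 were lower (73.8%, against 5.14% of all genes) and 0 higher, with a median of -0.59 and 41 negative differences. Cdc45, which encodes a part of the replicative helicase, fell from 8.69, 8.81 and 8.52 to 7.83, 7.59 and 7.96 (-0.88 ± 0.12; adjusted p = 0.00255). The dUTPase gene Dut (-0.88 ± 0.10), the helicase subunit genes Mcm7 (-0.82 ± 0.10) and Mcm2 (-0.59 ± 0.08) and the thymidine kinase gene Tk1 (-0.81 ± 0.13) were lower as well. In homologous recombination and Fanconi anemia 10 of 16 were lower (median -0.62), led by Brip1 (-0.83 ± 0.13), Exo1 (-0.81 ± 0.13), Rad54b (-0.76 ± 0.12) and Rad51ap1 (-0.73 ± 0.09). Averaged over their probe sets Cdc45 gave -0.41 and Exo1 -0.53, and both kept their calls. Brca1 did not follow, with 12.67, 12.34 and 12.97 under DMSO and 12.81, 12.19 and 12.67 under MEKi (-0.10 ± 0.18; adjusted p = 0.825).

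The letters TTCCCGC of the E2F site stood in 40.6% of the 32 windows of the lower replication genes, in 9.09% of the 11 windows of members that were not called and in 4.6% of all windows. The variant TTGGCGC was in 28.1%, 9.09% and 2.45%. Chosen by the same rule as above, with either E2F motif in capitals, Rfc4, a clamp loader gene (chr16:23127701-23127830, minus strand), and Cdt1, the replication licensing gene (chr8:122567915-122568044, plus strand), read as follows.
Rfc4: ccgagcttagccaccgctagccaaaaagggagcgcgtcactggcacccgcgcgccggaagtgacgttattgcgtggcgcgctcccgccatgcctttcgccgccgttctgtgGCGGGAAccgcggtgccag
Cdt1: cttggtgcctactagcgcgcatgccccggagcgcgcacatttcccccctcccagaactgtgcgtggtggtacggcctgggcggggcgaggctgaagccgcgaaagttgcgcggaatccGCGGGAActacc
Both carry the motif just after the start, with TTCCCGC on the strand opposite to the one printed. Rfc4 fell by 0.79 ± 0.08 (adjusted p = 0.00111) and Cdt1 by 0.78 ± 0.09 (adjusted p = 0.00132).

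The fall of the mitotic genes was larger at 72 h than at 24 h. Their median effect was -0.15 at 24 h, and 31 of 49 members had a difference between the times that passed below 0 and 0 above it, against 2.11% of all genes. Nusap1 had an effect of 0.00 at 24 h and -0.92 at 72 h (difference -0.92 ± 0.10; adjusted p = 0.000563). In DNA replication the median effect was -0.305 at 24 h, and 4 of 42 members passed below 0 in the difference, among them Dut (-0.49 ± 0.12; adjusted p = 0.0366) and Rfc4 (-0.60; adjusted p = 0.00517). With DMSO alone the mitotic genes moved by a median of -0.38 and the replication genes by -0.48 from 24 h to 72 h, and with MEKi by -0.90 and -0.74. Brca1 had an effect of 1.15 at 24 h and of -0.10 at 72 h, so that the difference was -1.26 ± 0.23 (adjusted p = 0.012).

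Few transcripts of the D cyclin and CDK inhibitor list moved. The counts of this paragraph stand beside 4.03% of all genes called higher and 5.14% called lower. Of 16 D cyclins, CDK inhibitors and pocket proteins 1 was lower and 0 higher, namely Rbl1, the gene of the E2F-binding pocket protein p107 (-0.65 ± 0.08; adjusted p = 0.00176; -0.28 as the mean of its 4 probe sets). This count was 2 without DMSO replicate 2 and 3 without DMSO replicate 3. Cdkn1a, which encodes p21, stood at 10.24, 10.15 and 9.96 with DMSO and 9.54, 10.03 and 9.91 with MEKi (-0.29 ± 0.13; adjusted p = 0.254), and Cdkn1b, which encodes p27, at 11.57, 11.26 and 11.59 and 11.30, 11.02 and 11.08 (-0.34 ± 0.11; adjusted p = 0.119). Neither reached the threshold in the main fit. For Cdkn1b the mean of its 2 probe sets gave -0.345 and passed (adjusted p = 0.0374), and the adjusted p was as low as 0.0463 without 1 array. Of 20 p53 targets 6 were lower and 1 higher. Ddit4, an inhibitor of mTORC1 signaling that also answers to low oxygen (-1.10 ± 0.18), the RNA-binding protein gene Zmat3 (-0.83 ± 0.10) and Trp53inp1 (-0.80 ± 0.12; -0.48 as the mean of its 2 probe sets) led the falls. The member that rose, named after its value was seen, was the Polo-like kinase gene Plk3 (0.52; adjusted p = 0.0437), a call lost without any 1 array (adjusted p up to 0.114). In the BCL2 family 1 of 14 passed, Bcl2l11, the gene of the death-promoting protein BIM, from 6.96, 6.63 and 6.74 to 6.30, 6.09 and 6.12 (-0.61 ± 0.11; adjusted p = 0.00881). Its effect at 24 h was 0.28, and the difference between the times was -0.89 ± 0.15 (adjusted p = 0.00852).

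Metabolic and stress genes moved both ways. Targets of hypoxia-inducible factor (HIF) outside glycolysis were lower in 8 of 20 cases, against 5.14% of all genes, and higher in 0. Their median was -0.68, with 19 negative differences. Ak4 fell from 10.21, 9.87 and 9.85 to 8.45, 7.93 and 8.95 (-1.53 ± 0.22; adjusted p = 0.00341), and Car9, the membrane carbonic anhydrase that serves as a hypoxia marker, from 7.80, 7.02 and 7.80 to 6.33, 5.95 and 6.69 (-1.22 ± 0.23; adjusted p = 0.0119). The second replicate was the lowest of its group in both conditions for Car9. With the replicate number as a block, which takes out such shared shifts, 15 of the 20 passed. The count was 3 without DMSO replicate 1 or MEKi replicate 2, 4 without DMSO replicate 3 or MEKi replicate 1, 13 without MEKi replicate 3 and 14 without DMSO replicate 2. The letters ACGTG of the hypoxia response element, a motif picked after the values were seen, were in 60.0% of the 10 windows of lower members, in 53.3% of the 15 windows of the others and in 19.6% of all windows.

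In glycolysis 6 of 19 members were lower, against 5.14% of all genes, and 1 was higher (9 and 1 with the block), with a median of -0.36 and 18 negative differences. The hexokinase genes Hk2 (11.59, 11.15 and 11.33 against 10.39, 9.93 and 10.60; -1.05 ± 0.17; adjusted p = 0.00614) and Hk1 (-0.90 ± 0.16; adjusted p = 0.00872) fell. So did Pdk1, the gene of a kinase that keeps pyruvate out of the mitochondrion (-1.20 ± 0.26; adjusted p = 0.0219), whose call was lost on leaving out DMSO replicate 1 or 3 (up to 0.0827). The enolase gene Eno2, the neuronal isoform, went the other way, from 7.03, 6.52 and 6.84 to 8.09, 8.33 and 8.01 (1.35 ± 0.14; adjusted p = 0.000957). The count of 6 was 2 without DMSO replicate 1 and 3 without MEKi replicate 1 or 2. At 24 h the median effect was 0.07 for HIF targets and 0.07 for glycolysis. In the difference between the times 6 of 20 HIF targets and 5 of 19 glycolysis genes passed below 0, and 0 and 1 above it. Of all genes 2.11% passed below 0 and 1.97% above it. With DMSO alone all 20 HIF targets were higher at 72 h than at 24 h, by a median of 0.93, and with MEKi 13 of 20 were, by a median of 0.15. The Dap and Actb control signals given above also separated the times, and their part in this was not tested.

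The ATF4 amino acid response supplies serine, cysteine and other amino acids under stress. It was lower in 11 of 26 members (42.3%, against 5.14% of all genes) and higher in 1. The median was -0.47, with 23 negative differences. Besides Cth and Vldlr, the alanine aminotransferase gene Gpt2 fell from 9.98, 9.57 and 10.02 to 8.94, 8.89 and 9.20 (-0.85 ± 0.13; adjusted p = 0.00579). The count was 7 without MEKi replicate 1 or 2. The letters TGATGNAA of the composite element bound by ATF4 were in 27.3% of the windows of the lower members, 22.2% of those of members not called and 3.97% of all windows. All 26 members were higher at 72 h than at 24 h in both conditions, by a median of 1.35 with DMSO and 0.92 with MEKi.

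The member of that list that rose, Slc7a11, encodes the cystine importer and belongs to the targets of NRF2, the factor of the antioxidant response. NRF2 targets and glutathione genes were higher in 7 of 19 cases (36.8%, against 4.03% of all genes) and lower in 0, with a median of 0.23. Slc7a11 rose from 7.86, 7.43 and 7.91 to 8.43, 9.37 and 8.91 (1.17 ± 0.21; adjusted p = 0.0103), although the mean of its 2 probe sets gave 0.64 (adjusted p = 0.0968). Srxn1 stood at 10.47, 10.40 and 9.50 with DMSO and at 11.48, 11.99 and 11.43 with MEKi (1.51 ± 0.24; 2.85-fold; adjusted p = 0.00616). Gclm, the gene of the modifier subunit of the enzyme that starts glutathione synthesis, rose by 1.26 ± 0.22 and the heme oxygenase gene Hmox1 by 1.24 ± 0.21. At 24 h the median effect of the list was -0.23. In the difference between the times 8 of 19 members passed above 0, against 1.97% of all genes. Below 0 there was 1, against 2.11% of all genes. Srxn1 had effects of -0.49 and 1.51, Gclm of -0.39 and 1.26 and Slc7a11 of -0.78 and 1.17, each of opposite sign at the 2 times. The letters TGACNNNGC of the antioxidant response element, also picked after the values were seen, were in 2 of the 5 windows of the higher members, in 16.7% of the 18 windows of the others and in 12.4% of all windows.

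Lysosome and autophagy genes rose in 11 of 29 cases (37.9%, against 4.03% of all genes) and fell in 0, with a median of 0.26. The acid hydrolase gene Gla stood at 8.16, 8.12 and 7.95 with DMSO and at 8.84, 9.12 and 8.84 with MEKi (0.86 ± 0.10; adjusted p = 0.00183). The lysosomal calcium channel gene Mcoln1 (0.80 ± 0.08; adjusted p = 0.000883), the glucosidase gene Gaa (0.71 ± 0.09) and the cathepsin gene Ctsb (0.68 ± 0.09) were the next largest. Averaged over 3 probe sets each, Gla gave 0.52 and Mcoln1 0.47, and both kept their calls. The count was 7 without MEKi replicate 2. The letters TCACGTG, as in the CLEAR element of lysosomal genes and picked after the values were seen, were in 44.4% of the 9 windows of the higher members, 21.1% of the 19 windows of the others and 3.77% of all windows.

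Several biosynthetic lists, though not that of fatty acid synthesis, showed little at 72 h, where 4.03% of all genes were called higher and 5.14% lower. In cholesterol biosynthesis 0 of 20 passed in limma, with a median of 0.00 against an effect of 0.48 at 24 h, and 0 of its differences between the times passed. At an unadjusted p under 0.05 there were 2, and without DMSO replicate 2 or 3 there was 1 called member. In ribosome biogenesis 4 of 33 were lower and 1 higher, with a median of -0.09 against -0.43 at 24 h. The higher count was 0 without DMSO replicate 1 or 3 or MEKi replicate 1 or 2. The lower count was 0 without MEKi replicate 2, 1 without DMSO replicate 1 or MEKi replicate 1 and 2 without MEKi replicate 3. With DMSO alone all 33 were lower at 72 h than at 24 h, by a median of -0.63. In oxidative phosphorylation 0 of 26 passed (median -0.065; 1 at an unadjusted p under 0.05). In the fatty acid synthesis list 3 of 14 were higher (21.4%), with a median of -0.095. They were the monoacylglycerol lipase gene Mgll (9.69, 9.64 and 9.93 against 11.48, 10.80 and 11.18; 1.4 ± 0.16; adjusted p = 0.0014), the elongase gene Elovl1 (0.61 ± 0.09) and the malic enzyme gene Me1 (0.46 ± 0.08). The lower count there was 0, and 2 without DMSO replicate 3. Among ER chaperones and the XBP1 arm 1 of 19 was higher (2 with the block) and 1 lower. Both counts were 0 without DMSO replicate 1 or 3 or MEKi replicate 1 or 2, and they were 2 and 0 without DMSO replicate 2.

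**Figure D4:**
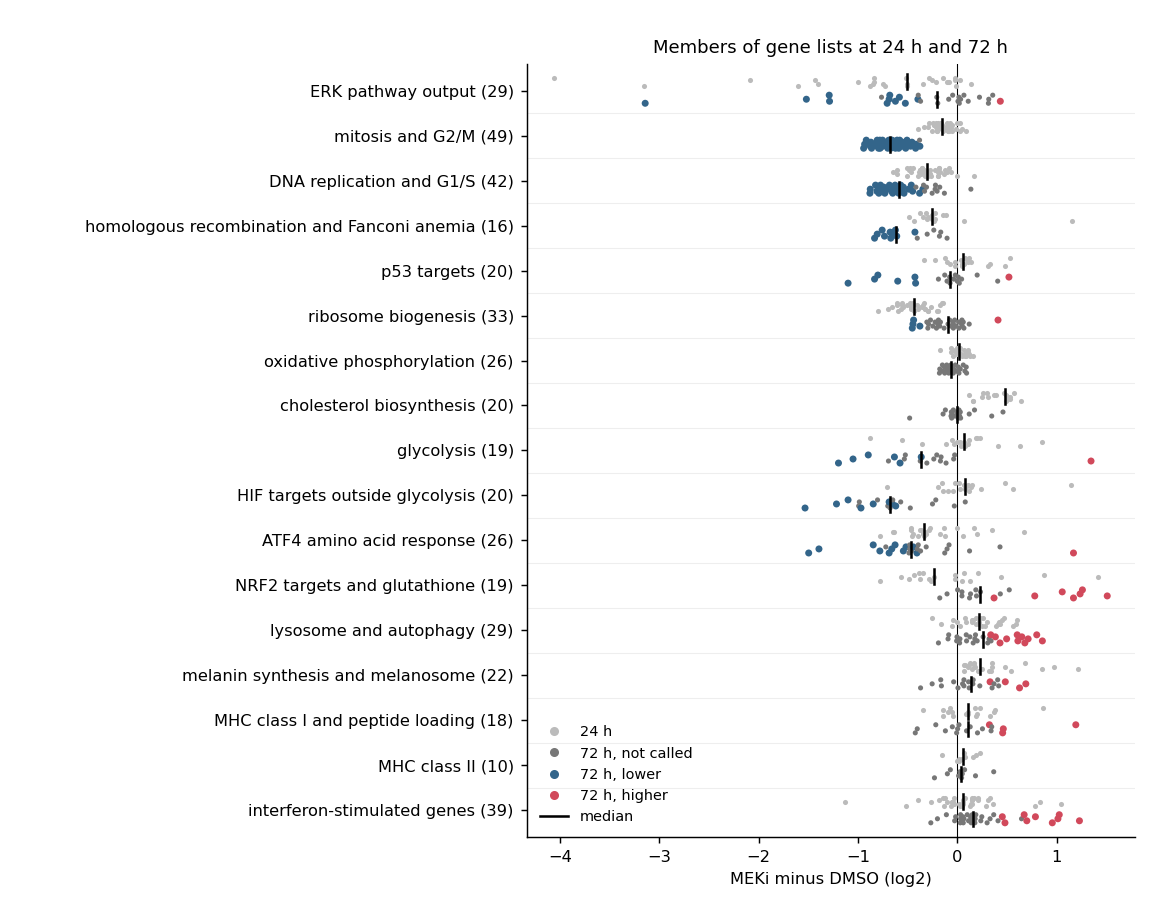
Difference between MEKi and DMSO (log2, x axis) of each measured member of 17 gene lists (y axis, number of members in brackets) at 24 h (upper, light grey) and 72 h (lower, coloured where called), with a black line at each median. The medians of mitosis genes were -0.15 at 24 h and -0.68 at 72 h, those of HIF targets 0.07 and -0.68, those of NRF2 targets -0.23 and 0.23, and those of cholesterol synthesis 0.48 and 0.00.

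Of 22 melanin and melanosome genes 4 were higher (18.2%, against 4.03% of all genes) and 0 lower, with a median of 0.14 and 17 positive differences. The melanocyte channel gene Trpm1 rose from 11.87, 11.73 and 11.97 to 12.63, 12.34 and 12.48 (0.63 ± 0.10; adjusted p = 0.00668), while the melanosome channel gene Oca2 rose by 0.69 ± 0.13 (adjusted p = 0.0141; 0.0535 without MEKi replicate 1). The count was 1 without MEKi replicate 1 and 2 without DMSO replicate 1 or MEKi replicate 2. Mitf, the master factor of melanocytes, stood at 12.66, 12.54 and 13.11 with DMSO and at 12.71, 12.17 and 13.00 with MEKi (-0.14 ± 0.20; adjusted p = 0.775), and the spread among the arrays of a group exceeded the difference. Sox10 (0.09 ± 0.10), Tyr (0.16 ± 0.08), Dct (0.07 ± 0.08) and Pmel (0.07 ± 0.08) did not pass either, with adjusted p of 0.307 to 0.714. The signals of Dct and Pmel were near the top of the scale (highest value 14.47), where a change can be compressed. Among lineage regulators the SOX factor gene Sox5 was lower (-0.60 ± 0.11; adjusted p = 0.00943), but the mean of its 7 probe sets gave -0.19 (adjusted p = 0.139). In that list of 15, 1 was higher and 2 were lower. The former count was 0 without any 1 array other than DMSO replicate 2, and the latter was 1 without DMSO replicate 1 or MEKi replicate 1 or 2.

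Receptor and signaling lists held single members that moved, where 4.03% of all genes were called higher and 5.14% lower. Counts of 1 member in these lists lie near those shares. Of 29 receptor tyrosine kinase genes 2 were higher and 3 lower, of which 1 lower remained without MEKi replicate 2. The ephrin receptor gene Epha3 fell from 11.08, 10.84 and 11.09 to 9.94, 9.61 and 10.27 (-1.06 ± 0.15; adjusted p = 0.00363), and the collagen receptor gene Ddr1 rose (0.57 ± 0.09; adjusted p = 0.00479). Erbb3, the neuregulin receptor gene, had an effect of -0.86 at 24 h and of 0.40 ± 0.10 at 72 h (adjusted p = 0.0394), a difference of 1.26 ± 0.12 (adjusted p = 0.000205). Its 72 h call was lost without DMSO replicate 1 or 3 or any 1 MEKi replicate (up to 0.161), and the mean of its 2 probe sets gave 0.21 (adjusted p = 0.348). In the PI3K, AKT and FOXO list 3 of 18 were lower and 1 higher (5 and 1 with the block), with Ccng2 (-1.0 ± 0.18), a FOXO target gene, and Klf6 (0.78 ± 0.09) the furthest from 0 in each direction. Tgfb1, the TGF-beta 1 gene, rose from 5.74, 5.81 and 5.65 to 6.90, 6.54 and 6.58 (0.94 ± 0.11; adjusted p = 0.00156; 0.46 as the mean of its 2 probe sets), and Id1, a target of BMP signals, fell (-0.59 ± 0.09; adjusted p = 0.00588), in a list of 19 with 1 higher and 3 lower. The lower count was 1 without DMSO replicate 1 or any 1 MEKi replicate. Among 16 YAP and TEAD genes the target gene Ccn2 fell (-0.90 ± 0.13; adjusted p = 0.00449) and the factor gene Tead4 rose (1.12 ± 0.14; adjusted p = 0.00227), and the lower count of 1 was 2 without DMSO replicate 2. Of 29 matrix and protease genes 1 was higher, the plasminogen activator gene Plat (0.85 ± 0.12; adjusted p = 0.00373; 0.45 as the mean of its 2 probe sets), and 3 were lower, led by Adam12. The higher count was 2 with the block and without DMSO replicate 2 or MEKi replicate 1, and the lower count was 1 without DMSO replicate 1 or MEKi replicate 1 or 3. In the neural crest and dedifferentiation list 1 of 19 was lower and 0 were higher (1 with the block and without MEKi replicate 1), and the lower count was 0 without DMSO replicate 1 or 2 or MEKi replicate 1 or 3.

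Since the study asked how MEKi bears on the visibility of tumor cells, antigen presentation was read gene by gene. Of 18 class I and peptide loading genes 4 were higher and 0 lower (3 and 1 with the block, and 3 and 1 without MEKi replicate 1), with a median of 0.11. The higher share was 22.2%, against 4.03% of all genes. The tapasin gene Tapbp, whose product helps class I molecules take up peptide, rose from 8.87, 8.70 and 8.57 to 10.01, 9.90 and 9.81 (1.19 ± 0.10; 2.29-fold; adjusted p = 0.000577). The heavy chain gene H2-K1 stood at 10.97, 10.86 and 10.91 with DMSO and at 11.35, 11.39 and 11.37 with MEKi (0.46 ± 0.08; adjusted p = 0.00814). H2-D1 stood at 11.08, 11.07 and 11.09 and at 11.47, 11.54 and 11.62 (0.46 ± 0.08; adjusted p = 0.00848). The groups did not overlap in these probe sets. The class I heavy chain genes are near-identical in sequence and other probe sets of theirs did not move alike, so that the mean over the 4 probe sets of H2-K1 gave 0.04 (adjusted p = 0.883) and that over the 9 of H2-D1 gave 0.16 (adjusted p = 0.171). The light chain gene B2m was higher by 0.32 ± 0.08 (adjusted p = 0.0455), a call that was lost with the block (0.0569) and without any 1 array (up to 0.156). The peptide transporter gene Tap1 (-0.12 ± 0.08; adjusted p = 0.446) and the immunoproteasome gene Psmb8 (0.25 ± 0.09; adjusted p = 0.139) did not pass. Of 10 class II genes 0 passed in limma, 2 had an unadjusted p under 0.05 and 1 passed without DMSO replicate 2, with Cd74, the invariant chain gene, at 0.04 ± 0.12 and Ciita, the class II master regulator gene, at 0.01 ± 0.08. The mean signals of Ciita (4.69 with DMSO and 4.70 with MEKi) and Psmb8 (4.52 and 4.78) lay below the median of the arrays. Those of Cd74 (5.62 and 5.66) lay just above it. At such levels background can hide a change, so that these results are uncertain.

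Interferon-stimulated genes were higher in 9 of 39 cases and lower in 0 (11 and 0 with the block), against 4.03% of all genes called higher. The median was 0.16, and 34 of the 39 differences were positive. The antiviral gene Rsad2 rose from 9.63, 9.58 and 9.31 to 10.75, 10.80 and 10.66 (1.23 ± 0.10; 2.35-fold; adjusted p = 0.000577). Ifit3, of the family that binds viral RNA, stood at 6.77, 6.73 and 6.63 and at 8.03, 7.58 and 7.60 (1.03 ± 0.12; adjusted p = 0.00176), and its relative Ifit1 rose by 0.96 ± 0.10 (adjusted p = 0.00107). Xaf1, an antagonist of the caspase inhibitor XIAP, rose by 1.01 ± 0.17 (adjusted p = 0.00794; 0.53 as the mean of its 2 probe sets). The regulator gene Irf1 did not pass (0.06 ± 0.14; adjusted p = 0.879). The level of the list also rose with time, by a median of 0.32 with DMSO and of 0.40 with MEKi from 24 h to 72 h. Ifit1 had an effect of -0.06 at 24 h and of 0.96 at 72 h. In the difference 4 of the 39 members passed above 0, against 1.97% of all genes.

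The letters GAAANNGAA of the interferon-stimulated response element, picked after the values were seen, were in 5 of the 10 windows of the higher members, in 48.0% of the 25 windows of the others and in 8.56% of all windows. Shown from base -180 to base -60 before the start, with the motif on either strand in capitals, Rsad2 (chr12:26456512-26456632, minus strand) and Ifit3 (chr19:34583349-34583469, plus strand) carry 1 and 3 copies.
Rsad2: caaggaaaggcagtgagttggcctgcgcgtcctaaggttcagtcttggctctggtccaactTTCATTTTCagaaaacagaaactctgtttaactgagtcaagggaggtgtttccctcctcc
Ifit3: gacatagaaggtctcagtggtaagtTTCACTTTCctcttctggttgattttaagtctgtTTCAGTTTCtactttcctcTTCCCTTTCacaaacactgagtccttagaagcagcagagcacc
Members that did not pass held the motif at about the same share as those that did.

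**Figure D5:**
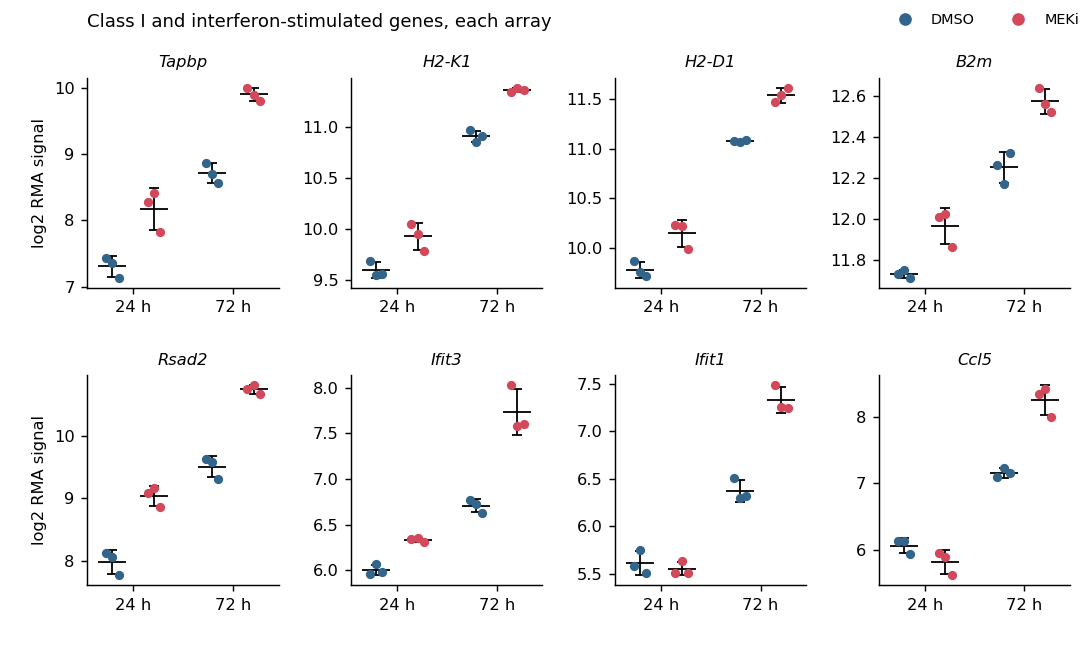
Log2 RMA signal of 4 class I antigen presentation genes, 3 interferon-stimulated genes and the chemokine gene Ccl5 by array, with 1 point for each of 12 arrays and a black line and bar for the group mean and SD (n = 3). At 72 h each MEKi array was above each DMSO array in all 8 genes, and the DMSO arrays themselves were higher at 72 h than at 24 h.

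Of 30 cytokine and chemokine genes 2 were higher (1 with the block) and 0 lower, and the higher count was 1 without any 1 array. This share of 6.67% was near the 4.03% of all genes called higher. So were the 4.0% of checkpoint ligands and galectins and the 3.7% of JAK/STAT genes given below. Ccl5, a T cell attracting chemokine gene, rose from 7.09, 7.23 and 7.15 to 8.34, 8.41 and 7.99 (1.09 ± 0.11; adjusted p = 0.00108), with an effect of -0.25 at 24 h (difference 1.34 ± 0.16; adjusted p = 0.00136). Cxcl10, named after its value was seen, had an effect of -1.13 at 24 h and stood at 8.84, 9.03 and 8.27 with DMSO and 9.39, 9.66 and 9.03 with MEKi at 72 h (0.65 ± 0.20; adjusted p = 0.0912, and 0.00461 with the block). The difference between its effects was 1.77 (adjusted p = 0.00288). Among 25 checkpoint ligands and galectins 1 was higher, the galectin-3 gene Lgals3, from 11.72, 11.08 and 11.63 to 12.93, 13.33 and 12.57 (1.47 ± 0.20; 2.76-fold; adjusted p = 0.00325). Cd274, which encodes PD-L1, stood at 6.31, 6.31 and 6.43 and at 6.15, 6.33 and 6.58 (0.00 ± 0.11; adjusted p = 0.99). Of 27 JAK/STAT receptors and regulators 1 was higher, the oncostatin M receptor gene Osmr (0.85 ± 0.12; adjusted p = 0.00358; 0.34 as the mean of its 3 probe sets), and 1 lower, which was 0 without any 1 array other than MEKi replicate 3.

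Across all genes, 358 of 18193 differences between the MEKi effects at 72 h and 24 h passed above 0 and 383 below 0. Of the 1669 genes called at 72 h, 1367 had a difference of the same sign at 24 h, and 429 also passed in the difference between the times. Tmem179 had the largest difference upward among genes above the median signal, with effects of -1.41 at 24 h and 1.41 at 72 h (2.82 ± 0.23; adjusted p = 0.000132). Its levels were 6.94, 6.80 and 6.23 with DMSO and 8.05, 8.33 and 7.81 with MEKi at 72 h. Tinagl1, a matrix protein gene, had effects of -1.6 and 0.57 (2.17 ± 0.26; adjusted p = 0.00136), although its 72 h call was lost without DMSO replicate 1 or any 1 MEKi replicate (up to 0.123). Downward, Col14a1 had effects of 0.75 and -1.47 (-2.22 ± 0.21; adjusted p = 0.000262) and Selenbp1 of -0.20 and -2.40 (-2.20 ± 0.52; adjusted p = 0.0365). Ndrg1, a hypoxia-responsive gene, had effects of 1.14 and -0.69 (-1.83 ± 0.23; adjusted p = 0.00189), and its 72 h call was lost without DMSO replicate 1 or 3 or MEKi replicate 1 or 2 (up to 0.15). Nr4a3, an orphan nuclear receptor gene, had effects of 0.96 and -0.80 (-1.76 ± 0.41; adjusted p = 0.0349), of which that at 72 h did not pass (adjusted p = 0.224; 0.012 with the block).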

How the data were processed

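RNA of B16-OVA cells kept with GDC-0623 or DMSO was hybridised to 12 Affymetrix 3' expression arrays of the mouse genome, of which the 6 at 72 h gave the main comparison. The authors deposited log2 values normalised by robust multi-array averaging (RMA), in 1 table of 45101 probe sets. The 64 control probe sets were left out, and 45037 were tested. Of these 34945 were paired with 1 gene by the platform annotation, 932 with several and 9160 with none. A gene was read by its probe set with the highest mean over the 12 arrays. Arrays carry no read depth, so the number of arrays limits the precision.

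Groups were taken from the sample titles. MEKi was compared with DMSO at 72 h in limma 3.58.1 (R 4.3.3) with lmFit and eBayes over the 6 arrays, and the MEKi effect at 72 h minus that at 24 h over the 12 arrays. The p-values were adjusted by the Benjamini-Hochberg method over all tested probe sets, with a threshold of 0.05. Standard errors are the moderated ones of that fit. The script was tested on simulated data with known changes.

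Deviations from the group means correlated at 0.189, 0.163 and 0.13 between DMSO and MEKi arrays of the same replicate number at 72 h. Between different numbers the values were -0.127 to -0.03, which are not independent of the former, since deviations within a group cancel out. The titles' numbers were taken to pair the samples at 72 h in the replicate block, while the main fit was unpaired. At 24 h the same-number values were 0.073, 0.125 and 0.151, and those between different numbers were -0.156 to 0.032. In the replicate block of the difference between the times, the numbers were used as pairs within each time. The alternatives were the replicate block, all 12 arrays in the 72 h fit, brighter probe sets only, arrays centred on their median, a second quantile normalization, a trended and robust prior, array weights, averaging the probe sets of each gene, and omitting arrays one by one.

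Named genes were the 12 highest and 12 lowest called genes at 72 h and the 6 highest and 6 lowest of the difference. Each had to have a group mean at or above the median signal, those at 72 h also groups that did not overlap, and clones and predicted genes were passed over. To these were added up to 4 called members of each list and a fixed set of marker genes. Genes named otherwise are said to be so. The comparison, the lists and the rule were chosen with earlier results of these data known. Promoter windows were RefSeq's of GRCm38.p6, searched on both strands for fixed letters, and the examples printed were chosen after the values were seen.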

Additional observations from a re-analysis of the deposited data

Results flagged for a closer look

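For 61 named genes the MEKi effect at 72 h differed from that at 24 h in limma's test of the difference over the 12 arrays (adjusted p = 0.000132 to 0.048), 28 upward and 33 downward. All values that follow are the effect at 72 h minus that at 24 h (log2), and both effects are measured against the DMSO arrays of their own time, whose levels also moved. What lies behind the differences was not tested.

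Among ERK output genes the difference was 2.77 for Etv5, 1.5 for Spry4 and 0.9 for Etv4. For Etv5 and Spry4 both groups at 72 h lay below the array median, so that a smaller effect cannot be told apart from a limit by background. The same holds at 24 h for Ttll7 and Vldlr. Etv4 at 72 h and Tgfb1 at 24 h (5.27 with DMSO and 5.34 with MEKi) lay near that median in both groups, where the same limit cannot be told apart. Of the genes chosen for the size of the difference alone, Tmem179 (2.82) and Tinagl1 (2.17) were upward and Nr4a3 (-1.76), which was not called at 72 h, was downward. Among the genes with the largest changes at 72 h the difference was upward for Mllt11 (1.83), Blvrb (1.81), Ecm1 (1.76) and Uchl1 (1.65). Smaller upward values were found for Adamtsl4 (1.27), Ttll7 (1.27), Fbxo2 (1.23) and Hsd3b7 (1.13). It was downward for Col14a1 (-2.22), Selenbp1 (-2.2) and Map2k6 (-1.61).

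Among the named genes of cell division these differences were all downward. They were -0.92 for Nusap1, -0.72 for Ndc80, -0.69 for Melk, -0.66 for Ttk, -0.66 for Spag5, -0.62 for Ube2c, -0.6 for Top2a, -0.59 for Cdc25b and -0.51 for Mki67. The replication and repair genes Rfc4 (-0.6), Dut (-0.49), Rad51ap1 (-0.51) and Brca1 (-1.26) and the pocket protein gene Rbl1 (-0.59) followed in the same direction. Of the 16 D cyclins, CDK inhibitors and pocket proteins 2 passed upward, which are not named, and 2 downward. The shares over all genes were 1.97% and 2.11%. Of the p53 and BCL2 family genes, Ddit4 (-1.58), Trp53inp1 (-1.33), Bcl2l11 (-0.89) and Zmat3 (-0.81) were downward and Plk3 (0.86) upward.

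The HIF target and glycolysis genes Ndrg1 (-1.83), Pdk1 (-1.61), Ak4 (-1.49) and Hk2 (-1.05) were downward, and Eno2 (1.46) was upward. The NRF2 targets Srxn1 (2.0), Slc7a11 (1.95) and Gclm (1.65) were upward. Other genes of metabolism, stress and organelles were Vldlr (-1.55), Mgll (-0.95), Herpud1 (-0.7), Gla (0.67) and Pno1 (0.55). Mgll was higher with MEKi at both times, by 2.35 at 24 h and 1.4 at 72 h.

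The immune genes were upward, with 1.77 for Cxcl10, 1.45 for Lgals3, 1.34 for Ccl5, 1.02 for Ifit1 and 0.7 for Ifit3. Signaling and lineage genes were upward for Tead4 (1.28), Erbb3 (1.26) and Tgfb1 (0.87) and downward for Ccng2 (-1.14), Epha3 (-1.01), Sox5 (-0.66) and Tfap2a (-0.44).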

How the results depend on the processing

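The count of 3260 probe sets called at 72 h (1347 higher, 1913 lower) was 5373 (2333 and 3040) when all 12 arrays shared 1 estimate of the spread. It was 3772 with the replicate block, 4268 with brighter probe sets only, 3324 (1544 and 1780) after a second quantile normalization, 4102 with a trended and robust prior and 4690 with array weights. With arrays centred on their median the total was 3270, split into 1062 higher and 2208 lower. Without 1 array it was 1383 to 2716 (530 to 1161 higher, 853 to 1612 lower). For the difference between the times, 1358 probe sets (612 and 746), the count was 2301 (1090 and 1211) with brighter probe sets only, 2106 (951 and 1155) with the trended and robust prior, 2606 (1148 and 1458) with array weights and 1844 (804 and 1040) with the replicate block. Without 1 array it was 668 to 1798 (275 to 772 higher, 393 to 1026 lower). The cause of these shifts was not tested. Of the 114 named genes called at 72 h, 0 reversed under any of these settings, and 9 to 27 lost their call without 1 array, 8 under the trended and robust prior and 14 when a gene's probe sets were averaged. Of the 18 not called, 1 gained a call on averaging (Cdkn1b), 1 under that prior and at most 1 without 1 array. In pairs by replicate number, 4 lost their call and 2 of 18 others gained one, as given in the text or, for Smad6 and Il33, here (adjusted p of 0.0546 and 0.0514 with the block), and no other named call changed. The 3 arrays a group set the precision, and many calls lay close to the threshold.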

Other observations

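The 18S rRNA control signal, which is no comparison of the report, was 12.63, 12.63 and 12.62 in the DMSO arrays at 72 h and 12.44, 12.85 and 12.46 in the MEKi arrays, so that the groups overlapped. Its lowest value was 12.13, in a DMSO array at 24 h.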
